A study of Mus musculus with 23 samples.

Results

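The comparison described here set the open chromatin of maxillary mesenchyme at embryonic day 12.5 (E12.5) against that at E11.5, 1 day earlier. A region was called gained when all 3 E12.5 peak lists and 0 of the 3 E11.5 lists held it, and lost in the opposite case. By this rule 665 regions were gained and 1466 were lost, together 2131 of the 106905 regions into which the peaks of the 6 lists merged. The gained regions were 0.622% of all regions and the lost regions 1.37%. Merging the lists of the whole series, E10.5 included, gave 118102 regions.

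All samples came from wild-type C57BL/6 mouse embryos. Maxillary prominences were dissected, the ectoderm was peeled away after Dispase II digestion, and the remaining mesenchyme was used for ATAC-seq, an assay in which the Tn5 transposase inserts sequencing adapters into accessible DNA. Each stage had 3 biological samples, numbered 1 to 3, and each sample had 1 list of peaks, that is, of places where insertions exceeded the local background. The labels do not say how many embryos made up a sample.

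The maxillary prominence is the part of the first pharyngeal arch that builds the upper jaw, the cheek and the secondary palate. Its mesenchyme comes largely from cranial neural crest and exchanges FGF, BMP, Wnt, hedgehog and retinoic acid signals with the ectoderm around it, and the palatal shelves grow out from it. Promoters of widely used genes are open in most cell types, whereas distal elements such as enhancers are more often open in particular cells or stages. In peak lists both kinds appear as called or not called, and a region outside a list may still be open below that list's threshold.

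Lost and gained regions differed in how many of them held a gene start. The promoter sequences of the 3 best-ranked lost regions and the 3 best-ranked gained regions with a RefSeq-listed gene start inside the region are given first. Rank is the mean position of the peaks by −log10 q within their lists, where 0% is the top of a list. Each sequence runs from 250 bases before to 50 bases after the start, 5′ to 3′ on the gene's strand, from RefSeq on GRCm38.p6, and capitals mark CG dinucleotides.
Gm6712 (lost, chr17:17294193-17294492, plus strand): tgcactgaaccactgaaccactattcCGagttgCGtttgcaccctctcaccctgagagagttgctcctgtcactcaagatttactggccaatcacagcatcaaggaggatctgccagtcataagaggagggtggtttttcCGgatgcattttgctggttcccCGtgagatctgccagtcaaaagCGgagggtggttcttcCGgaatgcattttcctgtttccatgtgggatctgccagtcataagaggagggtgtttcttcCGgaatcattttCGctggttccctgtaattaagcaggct
Diaph3 (lost, chr14:87141175-87141474, minus strand): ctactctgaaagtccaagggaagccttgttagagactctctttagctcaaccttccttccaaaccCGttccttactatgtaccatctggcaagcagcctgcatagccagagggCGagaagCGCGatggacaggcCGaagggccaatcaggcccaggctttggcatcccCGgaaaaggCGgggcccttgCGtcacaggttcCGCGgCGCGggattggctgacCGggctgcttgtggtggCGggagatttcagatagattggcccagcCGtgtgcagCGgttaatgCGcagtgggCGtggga
Zfp120 (lost, chr2:150136629-150136928, minus strand): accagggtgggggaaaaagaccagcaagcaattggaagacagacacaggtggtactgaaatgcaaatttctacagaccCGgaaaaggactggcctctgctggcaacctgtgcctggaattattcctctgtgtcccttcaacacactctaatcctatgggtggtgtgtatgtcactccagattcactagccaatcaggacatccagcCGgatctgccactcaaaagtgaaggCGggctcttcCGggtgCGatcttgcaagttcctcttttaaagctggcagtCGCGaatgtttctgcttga
Npr2 (gained, chr4:43631685-43631984, plus strand): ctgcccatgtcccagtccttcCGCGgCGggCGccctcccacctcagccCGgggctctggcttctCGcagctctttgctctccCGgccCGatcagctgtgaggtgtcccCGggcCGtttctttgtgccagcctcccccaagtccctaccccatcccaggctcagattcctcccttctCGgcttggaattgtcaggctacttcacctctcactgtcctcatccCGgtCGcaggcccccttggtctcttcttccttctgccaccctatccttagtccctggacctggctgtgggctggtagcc
Nr4a3 (gained, chr4:48045055-48045354, plus strand): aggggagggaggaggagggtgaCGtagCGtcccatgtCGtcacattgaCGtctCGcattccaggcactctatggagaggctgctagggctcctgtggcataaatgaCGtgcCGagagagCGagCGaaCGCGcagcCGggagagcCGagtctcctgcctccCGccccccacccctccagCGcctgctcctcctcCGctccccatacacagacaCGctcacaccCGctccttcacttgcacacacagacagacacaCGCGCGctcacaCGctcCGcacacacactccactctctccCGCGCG
Hba-x (gained, chr11:32276350-32276649, plus strand): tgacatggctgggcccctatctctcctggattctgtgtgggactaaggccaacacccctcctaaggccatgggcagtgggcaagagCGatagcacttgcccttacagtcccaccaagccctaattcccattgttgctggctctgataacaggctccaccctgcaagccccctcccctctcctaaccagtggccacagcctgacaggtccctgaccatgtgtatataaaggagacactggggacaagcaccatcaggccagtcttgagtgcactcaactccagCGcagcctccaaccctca

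The promoters of Gm6712, a predicted gene, Diaph3, a formin that assembles actin filaments, and Zfp120, a zinc finger gene, held 8, 18 and 7 CG dinucleotides. Those of Npr2, the receptor of C-type natriuretic peptide, Nr4a3, an orphan nuclear receptor, and Hba-x, the embryonic zeta globin gene, held 13, 26 and 2. At the lost Diaph3 promoter the deposited fold enrichment of the peak was 12.8, 15.6 and 11.1 in E11.5 samples 1, 2 and 3, and at the gained Npr2 promoter it was 3.28, 2.53 and 2.65 in E12.5 samples 1, 2 and 3. These regions were picked by rank, the former from regions with 994 promoters and the latter from regions with 10, and their mean ranks were 0.237% to 0.394% and 22.3% to 36.5%. Over the whole sets the median ranks were 30.4% for lost and 41.1% for gained regions.

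The lists differed in length and in peak height, which bears on every result. E11.5 samples 1, 2 and 3 had 5682, 24907 and 41457 peaks on the 19 autosomes and chromosome X, and the E12.5 samples had 26584, 50361 and 19139. The highest fold per list was 17.9 to 20.4 for E11.5 and 6.62 to 14.7 for E12.5. Fold is computed within a list, so these values are not on a common scale. The share of peaks within 1 kb of a gene start was 80.3%, 45.4% and 33.4% in the E11.5 lists, beside 16.1%, 17.0% and 30.8% in the E12.5 lists. All 3 E12.5 lists lay below all 3 E11.5 lists (21.3% ± 8.23 against 53.1% ± 24.4, SD, n = 3 each, difference -31.8 percentage points, exact two-sided permutation p = 0.1, the smallest that 3 against 3 can give). With the lists cut to the 5682 best peaks each, the shares still did not overlap, at 80.3% to 86.1% for E11.5 against 25.8% to 49.9% for E12.5. A number at the start of the peak names was 227, 239 and 312 for E11.5, then 319, 572 and 600 for E12.5. The labels do not say what it stands for, and it cannot be told apart from stage.

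The tissue label was checked against marker genes with a peak within 1 kb of a gene boundary. Of 12 facial mesenchyme markers, 0, 6 and 6 had such a peak in the E11.5 lists, then 4, 5 and 3 in the E12.5 lists, while Alx1, Alx4, Col3a1, Prrx1 and Prrx2 had none in any of the 6 lists. Of 10 epithelial markers 0, 2 and 2 had one, then 0, 3 and 1. For 8 endothelial markers the numbers were 0, 1 and 1, then 0, 1 and 0, for 6 muscle markers 0, 1 and 1, then 1, 0 and 1, for 8 glial and neuronal markers 0, 3 and 3, then 0, 2 and 1, and for 6 blood and macrophage markers 0, 1 and 1, then 0, 0 and 0. E11.5 sample 1 held no such peak for any of the 6 groups of markers. Of all RefSeq promoters, 19.1%, 46.2% and 43.7% overlapped a peak in the E11.5 lists, then 9.90%, 21.6% and 16.1% in the E12.5 lists. Those windows are narrower than 1 kb around a boundary, so these shares are only a rough background. The marker counts were not tested against it and do not by themselves establish the tissue.

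Because a longer list calls more regions, the numbers of gained and lost regions were set against the numbers that the calling odds of the 6 lists alone would give, for regions called by 3 of the 6 lists. Of 6921 such regions, 1466 were lost against 62.8 expected, 23.3 times as many. The 665 gained regions compared with 465.7 expected, 1.43 times as many. The excess on the side of E11.5 was also seen in regions that some E12.5 lists called. Regions called by 3 E11.5 lists and 1 E12.5 list numbered 1016 against 195.6 expected, and those called by 3 and 2 numbered 1267 against 453.9. Regions called by 3 E12.5 lists and 1 E11.5 list numbered 982 against 998.0 expected, and those called by 3 and 2 numbered 632 against 1445. In these patterns, calls by all 3 E11.5 lists were above expectation with 0, 1 or 2 E12.5 calls, and calls by all 3 E12.5 lists were above it only with 0 E11.5 calls.

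**Figure D1:**
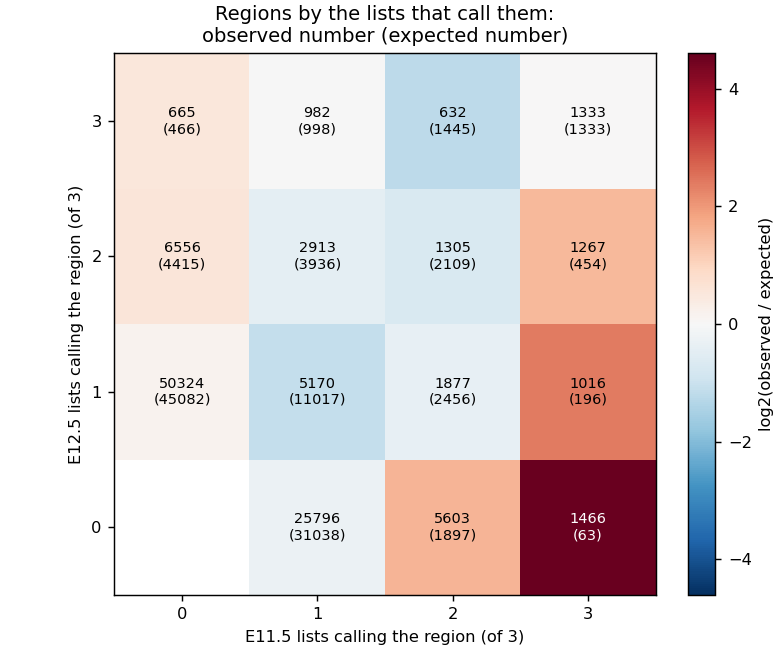
Each cell gives the number of merged regions called by that many E11.5 lists (x axis) and E12.5 lists (y axis), with the number expected from list odds in brackets; the colour is the log2 ratio. The lost cell (3 and 0) holds 1466 regions against 62.8 expected, and the gained cell (0 and 3) holds 665 against 465.7.

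Just outside the rule, 5603 regions were called by 2 E11.5 lists and 0 E12.5 lists, and 6556 by 2 E12.5 lists and 0 E11.5 lists. Of these 44.6% and 5.75% lay within 1 kb of a gene start, beside 71.3% of the lost and 8.87% of the gained regions. The excess of gained regions rested on single lists. Without E11.5 sample 2 the gained regions numbered 0.883 times the expected number, and without E12.5 sample 2 they numbered 0.934 times. Without E11.5 sample 1, the shortest list, 6918 regions were lost, 3.88 times the expected number, and without E12.5 samples 1 and 3, in turn, 2709 and 4820 were gained, 1.47 and 1.70 times. With the 6 lists cut to equal length the lost regions numbered 1453 (108.4 expected) and the gained 170 (106.8 expected).

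Most lost regions lay at gene starts, and gained regions were spread over the distance classes much like all regions, with fewer at gene starts. Of the lost regions 1045 (71.3%) lay within 1 kb of a gene start, 95 (6.48%) between 1 and 10 kb, 200 (13.6%) between 10 and 100 kb and 126 (8.59%) farther away. Of the gained regions 59 (8.87%), 171 (25.7%), 342 (51.4%) and 93 (14.0%) fell in these classes. The other 4790 regions called by 3 lists had 34.9%, 17.0%, 36.4% and 11.7% in them, and all regions had 15.8%, 19.2%, 47.4% and 17.5%. By the rule every lost region was called in E11.5 sample 1, and 80.3% of that list's peaks lay within 1 kb of a start. Without that list, 50.6% of the 6918 lost regions lay within 1 kb. The median distance was 0.118 kb for lost and 19.5 kb for gained regions, beside 8.78 kb for the others called by 3 lists and 21.3 kb for all. Gene bodies held 56.1% of the lost, 54.9% of the gained and 54.5% of all regions, so position inside or outside a gene did not set them apart.

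The E11.5 lists were also richer in promoters as a whole, so list odds were fitted again within each distance class. Within 1 kb the 1045 lost regions then compared with 283.4 expected, 3.69 times as many, and the 59 gained with 10.2, 5.76 times as many. Between 1 and 10 kb the ratios were 48.7 for lost and 1.25 for gained regions, between 10 and 100 kb 48.9 and 1.38, and beyond 100 kb 37.4 and 1.70. The ratio for the lost regions was thus highest away from gene starts, where E11.5 sample 1 has few peaks and fewer than 5 lost regions were expected in each class. Summed over the classes, 292.8 lost and 449.5 gained regions were expected, which puts the lost regions at 5.01 times and the gained at 1.48 times that number. Of the 421 lost regions farther than 1 kb from a listed start, 18 lay within 1 kb of a gene boundary, which can be a start that the promoter table does not list.

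**Figure D2:**
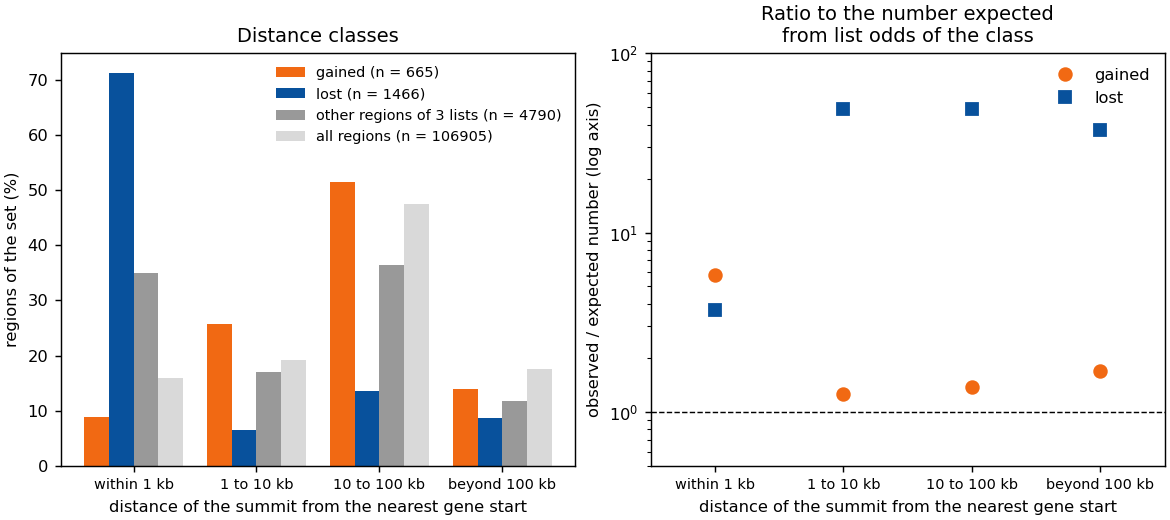
Left, the percent of gained, lost, other 3-list and all regions in each class of distance from the nearest gene start; right, on a log axis, the observed number divided by the number expected from list odds fitted in that class. Lost regions gather within 1 kb (71.3%) while 51.4% of gained and 47.4% of all regions lie between 10 and 100 kb, and the lost ratio is 3.69 within 1 kb and 37.4 to 48.9 farther away.

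Lost regions were wider than gained ones. The median width was 640 bp for lost and 423 bp for gained regions, beside 446.5 bp for the other regions called by 3 lists and 187 bp for all. Peaks of the whole lists had median widths of 286, 353 and 153 bp at E11.5, then 98, 194 and 222 bp at E12.5. The median fold of lost regions was 5.06, 7.92 and 4.96 in E11.5 samples 1, 2 and 3, where the whole lists had 5.06, 4.98 and 3.13. The median fold of gained regions was 3.50, 2.61 and 2.84 in the E12.5 samples, where the whole lists had 3.50, 2.47 and 2.84. Gained regions were therefore close to the typical peak of their lists, and lost regions stood above it in E11.5 samples 2 and 3 but not in sample 1. A −log10 q of 5 or more in all 3 lists was reached by 651 lost and 6 gained regions. Whole lists held 2988, 15250 and 13199 such peaks at E11.5, then 3381, 6577 and 1885 at E12.5. A separate peak of the other stage within 1 kb was present beside 158 gained regions (23.8%) and 134 lost regions (9.14%).

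The E10.5 lists had no part in the rule and show where each set stood 1 day before E11.5. Of the lost regions 848 were open at E10.5 in at least 1 of 3 lists (57.8%), and 190 (13.0%) were in all 3. Of the gained regions 52.2% were in at least 1 E10.5 list and 46 (6.92%) in all 3. For the other regions called by 3 lists the shares were 58.3% and 10.4%. Within 1 kb of a start 65.6% of lost regions had an E10.5 call, below the 77.4% of those other regions, against 39.5% between 10 and 100 kb and 27.0% beyond. Of the 421 lost regions farther than 1 kb, 259 had no E10.5 call and were thus called at E11.5 alone among the 3 stages, as a description of these 9 lists. Of the 606 gained regions farther than 1 kb, 300 had none, and 34 were called in all 3 lists at E10.5 and E12.5 and in none at E11.5. As shares, 61.5% of these lost and 49.5% of these gained regions had no E10.5 call, beside 52.0% of the other 3-list regions at such distances, and 5.23%, 5.61% and 5.87% were in all 3 E10.5 lists.

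Promoters in lost regions had a lower GC content than those that every list called. Over the 300-base promoters of the RefSeq table, the median GC content was 58.7% for 994 promoters in lost regions, 62.7% for 1279 in the other regions of 3 lists, 64.7% for 872 called by all 6 lists and 56.7% for all 21019. The medians of CG dinucleotides were 19, 23, 25 and 13. The 10 promoters in gained regions had a median GC content of 61.5%. Split into 5 bins of about equal size by GC content, from the lowest up, 1.50%, 4.24%, 7.11%, 6.27% and 4.46% of promoters lay in a lost region. In bin 2 (46.3% to 53.7% GC) 9.13%, 28.2% and 24.8% of promoters had a peak in the E11.5 lists, beside 3.26%, 6.76% and 3.38% in the E12.5 lists. In bin 5 the shares were 30.8%, 72.8% and 68.2%, beside 16.0%, 39.0% and 35.1%. The gap between the stages was proportionally wider at low GC content, and E11.5 sample 1 lay within the E12.5 range in bins 3, 4 and 5. GC content can move with library preparation, and its part in the lost promoters was not tested.

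**Figure D3:**
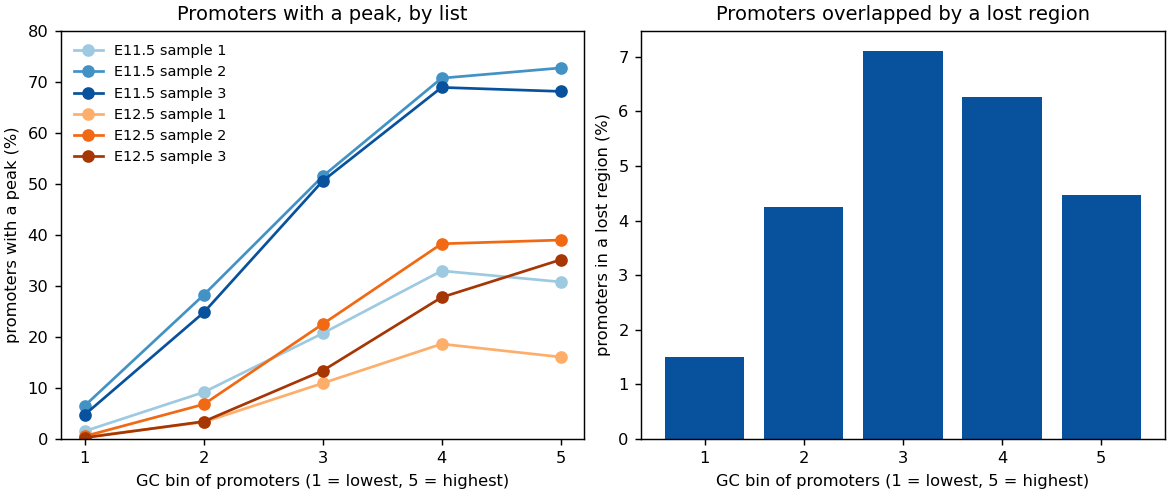
Left, the percent of RefSeq promoters with a peak in each list, by GC bin; right, the percent of promoters in a lost region. E11.5 samples 2 and 3 lie above the E12.5 lists in each bin, and lost promoters are most frequent in bin 3 (7.11%).

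Motifs were searched in these promoters on both strands. The letters CCAAT, bound by NF-Y, were in 44.3% of promoters in lost regions, 32.6% of the mixed 3-list ones, 59.2% of those called by all 6 lists and 38.5% of all. GGGCGG, an Sp1-type GC box, was in 66.6%, 68.6%, 80.7% and 46.6%. CCGGAAG, an ETS-type motif, was in 23.3%, 19.2%, 18.3% and 11.7%, GCGCATGC, an NRF1-type motif, in 6.44%, 5.63%, 5.50% and 3.54%, and TATAAA in 6.14%, 5.94%, 3.10% and 12.7%. TAATTA, a homeodomain core, was in 3.42%, 1.33%, 0.803% and 4.47%, CAGCTG, an E-box, in 13.7%, 16.2%, 9.86% and 15.7%, and TGANTCA, an AP-1-type motif, in 3.82%, 4.53%, 3.78% and 7.04%. A match describes letters in these windows, overlaps between motifs were allowed, and no test was made. In the promoters printed above, CCAAT was found in Gm6712, Diaph3 and Zfp120, CCGGAAG in Gm6712 and Zfp120, TAATTA in Gm6712, CAGCTG in Npr2, GGGCGG in Nr4a3 and TATAAA in Hba-x.

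Chromosomes shared the sets unevenly. Chromosome X held 90 lost regions (6.14%), 3 gained regions (0.451%) and 1.34% of all regions. Among regions within 1 kb of a start, 79 lost ones were on X (7.56%), against 3.15% of all such regions and 0.577% of those called by all 6 lists. The X share of whole lists was 3.04%, 2.63% and 1.70% at E11.5, then 0.617%, 1.21% and 1.07% at E12.5, again without overlap (exact two-sided permutation p = 0.1, the smallest possible). The labels do not give the sex of the embryos, and its part was not tested. Chromosome 19 held 15 lost regions (1.02%) and 24 gained regions (3.61%), beside 2.79% of all regions.

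Of the 12 best-ranked lost regions, 10 lay within 1 kb of a gene start. The highest was the promoter of Hspa13, a chaperone gene of the HSP70 family, on chr16:75766439-75767371, with folds of 11.5, 16.0 and 14.5 in the E11.5 lists. Emc2, a subunit of the endoplasmic reticulum membrane complex, had folds of 11.6, 15.2 and 13.5 on chr15:43476975-43477718. Stard3nl, a gene of late endosomes, had 11.6, 13.7 and 14.7 on chr13:19395473-19396239, and Cenpc1, centromere protein C, 9.67, 10.3 and 11.3 on chr5:86065067-86066975. All 4 had no peak in any E12.5 list, and at E10.5 all but Stard3nl, with 2, were in all 3 lists. The zinc finger genes Zfp120 and Zfp691 had folds of 12.9, 16.6 and 12.7 and of 11.7, 15.0 and 8.89 and were each called by 1 E10.5 list. Others of the 12 best were the promoters of Diaph3, Gm6712, Gm5165 and 2610044O15Rik8, and 2 regions away from a start. One of these lay inside Stard13 on chr5:151368253-151369162, 59.6 kb from the nearest gene boundary (folds of 11.5, 12.9 and 11.4, and called by all 3 E10.5 lists). The other lay 53.7 kb from Gm51425 on chr17:16951151-16951766 and had no E10.5 call. Gm genes are predicted genes, and whether near-identical copies share reads at them was not tested.

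Of the 12 best-ranked gained regions, 10 lay farther than 1 kb from a gene start. A region inside Dnah2, an axonemal dynein gene, on chr11:69492649-69493235, had folds of 4.82, 3.20 and 3.52 in the E12.5 lists. A region inside Bcl11a, a zinc finger repressor of transcription, on chr11:24163828-24164582, had 5.03, 4.09 and 3.82, and one 24.4 kb from Ccn3, a matricellular protein gene, on chr15:54777844-54779385 had 4.72, 3.46 and 4.15. Both were seen at E10.5, in 3 and 2 lists. Of the 12 best, 2 lay within 1 kb of a gene start. The one 0.617 kb from the start of Cebpb, a C/EBP transcription factor gene, had folds of 3.63, 2.58 and 2.45. The one 0.966 kb from the start of Foxo1, a forkhead factor gene, had 3.91, 3.44 and 3.47. Smad3, a mediator of TGF-beta signals, had a gained region 15.6 kb away on chr9:63773460-63773877 (folds of 3.99, 3.07 and 3.13), and Sufu, the inhibitor of Gli factors in the hedgehog pathway, had one 45.4 kb inside the gene on chr19:46441773-46442670 (4.06, 2.90 and 3.25). Dok5, an adaptor of receptor tyrosine kinases, Fam20a, which is needed for enamel formation, Igfbpl1, Gm266 and Fam214b made up the rest, with the last lying inside Unc13b.

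**Figure D4:**
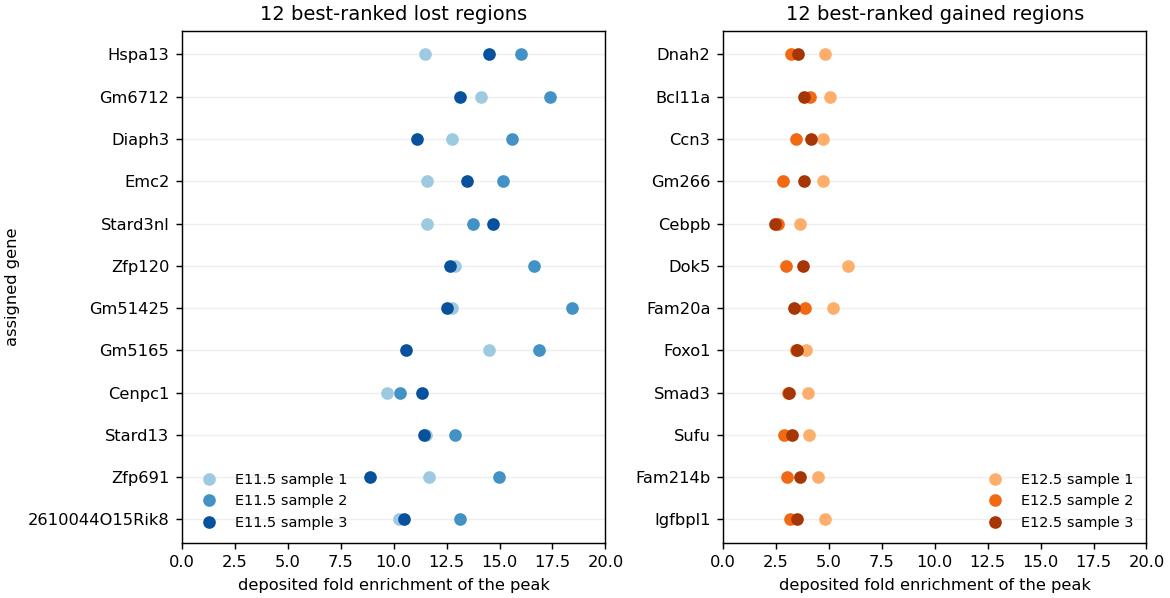
The deposited fold of the peak in each list that calls it (x axis) for the 12 best-ranked lost and gained regions, named by the assigned gene. Lost regions have folds of 8.89 to 18.4 in the E11.5 lists and gained regions 2.45 to 5.90 in the E12.5 lists; fold scales differ between lists, so heights are to be read within a list.

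Few genes had more than 1 region of a set. A gained region was assigned to 571 genes within 100 kb (2.64% of 21627) and a lost region to 1328 (6.14%), of which 22 and 32 had 2 or more. These shares cover all genes, whatever their number of regions. The gene lists set beside them below are not matched for that number, and its part was not tested. Dok5, Fgd3, a guanine nucleotide exchange factor of Cdc42, and Prex1, one of Rac, had 3 gained regions each. The Dok5 regions, all inside the gene, had folds of 5.90, 2.96 and 3.78, of 4.33, 2.42 and 2.66, and of 4.60, 2.64 and 2.57 in the E12.5 samples. Mef2c, a MADS-box factor of muscle, heart and craniofacial neural crest, had 3 lost regions, as did Pecr, a peroxisomal reductase gene, and Zfp516. All 3 genes with 3 lost regions had them away from their starts.

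Calls were then added up per gene to ask which genes had more or fewer calls at E12.5 than the list odds gave. A residual per list was formed for 6753 genes, each with at least 5 regions that 1 to 5 lists called: the calls minus the expected calls in units of their standard deviation. By limma, 33 genes had more calls at E12.5 (0.489% of those tested) and 71 had fewer (1.05%) at a Benjamini-Hochberg adjusted p under 0.05. The residuals of the 2 stages did not overlap in 29 of the 33 and 68 of the 71 genes, against 20.2% of all genes tested. These genes were picked by the difference of the same residuals, so this contrast follows from the selection and is no separate support. Genes with more calls had a median of 26 regions and those with fewer a median of 6, beside 8 over all genes. No call in any E12.5 list was found for 12 of the 71 and for 21 of all genes tested. No call in any E11.5 list was found for 0 of the 33 and for 112 of all genes tested. The median difference in residual over all genes was 0.32, and with the equal-length lists it was 1.52.

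The 71 genes held up better than the 33 when list odds were fitted by distance class. Then 45 genes had fewer calls, 38 of them among the 71, and 2 had more, Cdh4 and Gm15501, the latter named after its value was seen, of which only Cdh4 was among the 33. Calls also rested on single lists. Without E11.5 samples 1, 2 and 3 in turn, 18, 0 and 7 genes had more and 53, 6 and 87 fewer calls, and without E12.5 samples 1, 2 and 3, 0, 43 and 8 had more and 1, 6 and 13 fewer. Mef2c was the gene that passed in all 6 of these fits, and its highest limma adjusted p among them was 0.0244. Without E11.5 sample 2, only 36 of the 71 genes kept enough regions to be fitted. The other genes named below passed in 1 to 5 of the fits they could enter, 5 or 6 per gene.

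Mef2c had the largest difference of any gene. Its 12 regions spanned chr13:83458758-83745474, from upstream of the gene to beyond its other end. Of these, 3, 11 and 7 were called in E11.5 samples 1, 2 and 3 and 0, 0 and 0 in the E12.5 samples, where 0.538, 3.28 and 5.11 and then 3.39, 6.29 and 2.39 were expected. The residual difference was -6.01 ± 0.876 (SE, limma adjusted p = 1.12e-06) and -7.29 with odds by distance class (adjusted p = 1.64e-05). With the peaks of a −log10 q of 5 or more it was -1.84 and did not pass (adjusted p = 0.228). The 3 lost regions lay inside the gene on chr13:83518028-83518893 (folds of 4.64, 8.53 and 6.89) and beyond it on chr13:83730592-83731543 (4.49, 5.35 and 3.84) and chr13:83744931-83745474 (5.79, 10.4 and 5.61). They were in 1, 3 and 2 E10.5 lists, while the other 9 regions, which E11.5 sample 1 did not call, were in none.

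The FGF pathway had 2 such genes, a ligand and a target. Fgf10, the ligand that mesenchyme sends to epithelium, had 1, 10 and 3 of 10 regions with a call at E11.5, then 1, 0 and 1 at E12.5, against 2.26 and 3.08 expected on average (difference -3.92 ± 0.920 SE, limma adjusted p = 0.00939). E11.5 sample 2 called all 10, and the gene passed in 2 of the 6 fits without 1 list, not in the one without that sample. Etv1, an ETS factor and readout of FGF signalling, had 6 regions, of which the E11.5 lists called 1, 6 and 4 while the E12.5 lists called none (-4.13 ± 0.865, adjusted p = 0.0045). Its lost region, on chr12:38778364-38779500 and 1.39 kb from the start, had folds of 7.23, 7.19 and 8.77 and was in all 3 E10.5 lists. The ligand Fgf9 had 1 gained region, 25.9 kb from its nearest boundary, and Fgfrl1, a receptor without kinase activity, had 1 inside the gene, without Fgf9 passing (adjusted p = 0.187) or Fgfrl1 having enough regions for the test. Of the 27 genes of the list, 19 were tested, 2 had fewer and 0 more calls, and the median difference was -0.15, beside 0.32 over all genes. Shares over all tested genes were 1.05% with fewer and 0.489% with more calls. A lost and a gained region were each assigned to 7.41% of the list, beside 6.14% and 2.64% of all genes.

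In the BMP and TGF-beta pathway, 3 genes of 37 had a gained and 4 a lost region (8.11% and 10.8%, beside 2.64% and 6.14% of all genes). Bmpr1b, a type I BMP receptor, had 1, 5 and 2 of 6 regions with a call at E11.5, then 0, 1 and 0 at E12.5 (difference -3.29 ± 0.871 SE, limma adjusted p = 0.0261). It was the 1 gene that passed among 25 tested, whose median difference was -0.00426. Of all tested genes 1.05% had fewer calls. The receptors Acvr1 and Acvr2a each had 1 lost region within 1 kb of a gene start, for Acvr1 that of its neighbour Upp2, and the ligand Gdf6 and the inhibitor of differentiation Id4 had 1 lost region at 73.4 and 33.2 kb. The mediator Smad3, the co-receptor Tgfbr3 and the decoy receptor Bambi had 1 gained region each, at 15.6, 14.1 and 26.3 kb. The gene-wide difference of Smad3 was 2.79 (adjusted p = 0.0592), which missed the threshold.

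The Wnt pathway had 3 genes with fewer and 0 with more calls among 36 tested, with a median difference of 0.30. Shares over all tested genes were 1.05% with fewer and 0.489% with more calls. A lost region was assigned to 8.33% of the list and a gained one to 2.08%, beside 6.14% and 2.64% of all genes. Cxxc4, an inhibitor that binds Dishevelled, had 1, 8 and 6 of 9 regions with a call at E11.5, then 0, 1 and 0 at E12.5 (-4.37 ± 0.867 SE, limma adjusted p = 0.00299). It passed in all fits without 1 list but the one without E12.5 sample 1 (adjusted p = 0.112). Fzd4, a Wnt receptor, had 2, 4 and 4 of 6 regions with a call at E11.5, then 0, 1 and 1 at E12.5 (-3.66 ± 0.853, adjusted p = 0.00916), although 3 of these 6 regions lie inside its neighbour Tmem135. Rspo2, a secreted enhancer of Wnt signals, had 0, 6 and 5 of 9 called at E11.5, then 0, 0 and 1 at E12.5 (-3.03 ± 0.879, adjusted p = 0.0487), and did not pass with odds by distance class (adjusted p = 0.0837). Its relative Rspo3 had a gained region inside the gene 1.26 kb from the boundary, with folds of 4.81, 2.56 and 3.42. The promoter of the receptor Fzd7 was lost, with folds of 6.44, 5.77 and 5.25 in the E11.5 lists, and so was a region 9.36 kb from Nkd1, an inhibitor of Dishevelled.

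No gene passed in the hedgehog or retinoic acid lists, of 11 and 13 tested (limma, adjusted p 0.05), whose median differences were -0.72 and -0.23. A lost region was assigned to 14.3% of the 14 hedgehog genes and a gained one to 7.14%. For the 18 retinoic acid genes the shares were 11.1% and 5.56%, beside 6.14% and 2.64% of all genes. In the hedgehog list the co-receptor Boc and the effector Gli3 had 1 lost region each, with folds of 5.06, 8.45 and 4.18 at Boc and 4.52, 5.68 and 3.77 at Gli3, and Sufu had the gained region given above. In the retinoic acid list Crabp2, a retinoic acid carrier, had a lost region 7.64 kb away with folds of 5.52, 8.55 and 5.30. Rarb, a retinoic acid receptor, had a gained region inside the gene, on chr14:16501994-16502615, and a lost one 90.3 kb beyond it.

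Among 21 tested genes of the axon guidance list 4 had fewer and 0 more calls at E12.5, and a guidance receptor outside the list had more. Shares over all tested genes were 1.05% with fewer and 0.489% with more calls. A lost region was assigned to 15.4% of the list and a gained one to 3.85%, beside 6.14% and 2.64% of all genes. Sema3c and Sema3a, secreted semaphorins, had 1, 6 and 2 and 1, 5 and 3 of 7 regions with a call at E11.5, then 0, 0 and 0 and 0, 1 and 0 at E12.5 (limma adjusted p = 0.00987 and 0.0238). The receptor Robo1 had 2, 9 and 3 of 13 called at E11.5, then 0, 3 and 0 at E12.5 (difference -3.86, adjusted p = 0.00894), and the netrin receptor Unc5c 0, 5 and 4 of 7 and then 0, 0 and 0 (-3.13, adjusted p = 0.0398). With odds by distance class Sema3c and Unc5c did not pass (adjusted p = 0.0886 and 0.0697). The median of the list was 0.40, above the 0.32 of all genes. Unc5a, a related netrin receptor, was the one outside the list, with 0, 0 and 3 of 13 regions with a call at E11.5, then 6, 10 and 5 at E12.5 (3.36 ± 0.853 SE, adjusted p = 0.0201). In the Pdgf and Eph list, of 15 tested, Epha3, an ephrin receptor, had 1, 6 and 3 of 6 called and then 0, 0 and 0 (-3.96, adjusted p = 0.00872), and Pdgfc, a growth factor, 1, 6 and 4 of 7 and then 0, 1 and 1 (-3.46, adjusted p = 0.018, and 0.0513 by class). Efnb2, an ephrin ligand, had the gained region of that list, 37.4 kb away. Of the 18 genes of the Pdgf and Eph list 22.2% had a lost and 5.56% a gained region, beside 6.14% and 2.64% of all genes.

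In the osteogenic and chondrogenic lists 4 genes had fewer and 0 more calls. Shares over all tested genes were 1.05% with fewer and 0.489% with more calls. A lost region was assigned to 10% and 15% of these lists and a gained one to 5% of each. For all genes these shares were 6.14% and 2.64%. In the osteogenic list, of 14 tested, Mef2c and Col1a2, a chain of type I collagen, passed, and Col1a2 had 0, 7 and 3 of 7 regions with a call at E11.5, then 1, 0 and 0 at E12.5 (difference -3.12 ± 0.899 SE, limma adjusted p = 0.0478, and 0.119 with odds by distance class). In the chondrogenic list, of 12 tested, Pth1r, the parathyroid hormone receptor, had 1, 5 and 2 of 6 called and then 0, 0 and 0 (-3.53, adjusted p = 0.0149, and 0.0822 by class), and Trps1, a GATA-type repressor, 1, 7 and 4 of 11 and then 1, 1 and 0 (-3.39, adjusted p = 0.0215). Sox5 and Sox6, partners of Sox9 in cartilage, did not pass, and Sox5 had a gained and Sox6 a lost region. Among 40 collagen and matrix genes, 8 (20%) had a lost region, 3 of them within 1 kb of a start, and 2 (5%) a gained one, Col18a1 and Col6a2. The background over all genes was 6.14% and 2.64%. It is not matched for regions per gene: 34 of these 40 genes had enough regions for the gene test, against 6753 of all 21627. The lost ones included the promoter of the integrin Itgb1 (folds of 6.63, 10.7 and 8.55, and in all 3 E10.5 lists) and a region 8.32 kb from Sparc.

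Of the neural crest and facial patterning factors tested, 1 had more and 1 fewer calls, beside 0.489% and 1.05% of all tested genes. Each passed in 1 of the 6 fits without 1 list. A gained region was assigned to 4.35% of the list and a lost one to 6.52%, beside 2.64% and 6.14% of all genes. Of 35 tested neural crest and facial patterning factors, Lmx1b, a LIM homeodomain factor, had more calls, with 0, 1 and 8 of 29 regions at E11.5, then 10, 15 and 9 at E12.5 (difference 3.16 ± 0.856 SE, limma adjusted p = 0.0329, and 0.128 with odds by distance class). Meis1, a TALE homeodomain factor, had fewer, with 0, 7 and 7 of 13 and then 0, 2 and 1 (-3.00 ± 0.872, adjusted p = 0.0495, and 0.0804 by class). The promoter of Snai2, a factor of neural crest migration, was lost, with folds of 6.51, 8.96 and 6.73. Of 21 tested palate and tooth factors 0 passed, with gained regions at Sall3 and Tbx3 and a lost one at Sall1. These were 6.90% and 3.45% of the 29 genes of that list, beside 2.64% and 6.14% of all genes. Of 39 Hox genes 4 (10.3%) had a gained and 0 a lost region, beside 2.64% and 6.14% of all genes. The region at Hoxd13, within 1 kb of its start, had folds of 4.16, 3.07 and 4.13 in the E12.5 samples and was in all 3 E10.5 lists.

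Cdh4, which encodes R-cadherin, was the 1 gene of the 33 that also had more calls with odds by distance class. Of its 32 regions 0, 1 and 6 were called at E11.5, then 16, 17 and 8 at E12.5, against 6.74 and 9.26 expected on average (difference 4.03 ± 0.865 SE, limma adjusted p = 0.00599, and 0.0336 with odds by distance class). The call was lost without E11.5 sample 2 and without E12.5 sample 1, where the highest adjusted p was 0.117. It was also lost within 20 kb of the gene, where the difference was 1.93 (limma adjusted p = 0.346), and with equal-length lists, where it was 2.01 (adjusted p = 0.255). Its 2 gained regions lay inside the gene on chr2:179805818-179806102 and 3.80 kb beyond it on chr2:179903081-179903347, and neither was in an E10.5 list. In the cadherin list, of 13 tested with a median of 1.04, Ajap1, an adherens junction protein gene, also had more calls (0, 2 and 5 of 36, then 13, 21 and 8, adjusted p = 0.00894), and Cdh20 had fewer (1, 5 and 2 of 5, then 0, 1 and 0, adjusted p = 0.0334, and 0.221 by class). For Ajap1 the difference within 20 kb of the gene was -0.0651, and its adjusted p was 0.984. The 13 tested genes of the list thus held 2 with more and 1 with fewer calls, beside 0.489% and 1.05% of all tested genes.

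The other genes with the largest excess at E12.5 had many regions each. Dnah8, an axonemal dynein gene, had 0, 0 and 3 of 32 called at E11.5, then 23, 9 and 4 at E12.5 (4.31 ± 0.981 SE, limma adjusted p = 0.00894), and its residuals overlapped between the stages. Rps6kc1, Myrip, Arhgef10l, Zfp536, Myo18b and Zbtb40 completed the 10 largest, with differences of 3.33 to 3.86, and of these 10 only Cdh4 passed with odds by distance class. Among the 10 largest deficits, Pecr had 4, 5 and 5 of 8 called at E11.5, then 0, 3 and 0 at E12.5 (-4.44, adjusted p = 0.00299). Btbd3, Adamts6, Klrb1c and Mpped2 had differences of -4.38, -4.19, -4.09 and -3.95, with 1, 1, 2 and 1 lost regions, and all 10 passed with odds by distance class.

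**Figure D5:**
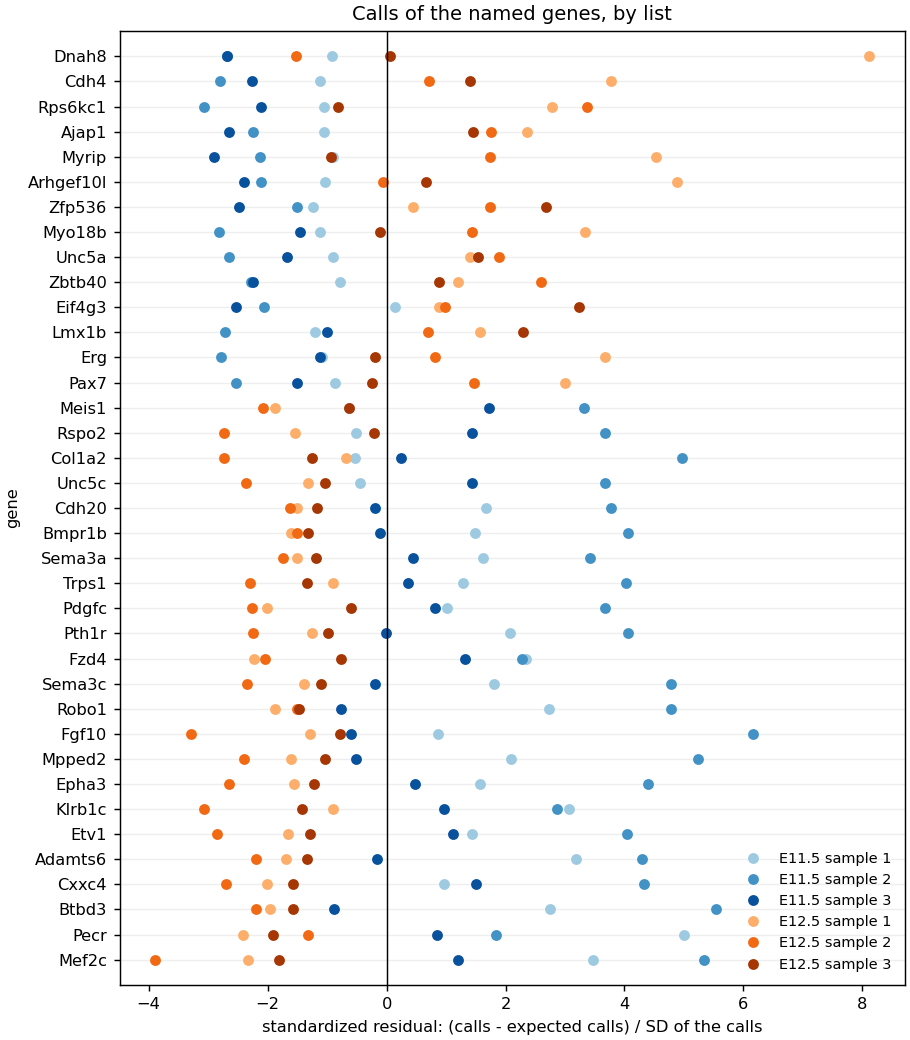
For each named gene, the standardized residual of the calls in each of the 6 lists (x axis), ordered by the difference between the stages. Genes at the bottom have E11.5 residuals to the right, mostly led by E11.5 sample 2, and genes at the top have E12.5 residuals to the right, mostly led by E12.5 sample 1 or 2.

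Lists of genes used in every cell were counted in the same way. Of 76 cytosolic ribosomal protein genes 6 (7.89%) had a lost and 1 a gained region, of 82 respiratory chain genes 7 and 2, of 48 splicing factor genes 5 (10.4%) and 0, of 39 proteasome genes 5 (12.8%) and 2, of 78 mitochondrial ribosomal protein genes 5 (6.41%) and 1, and of 55 translation initiation factor genes 5 (9.09%) and 3. Beside the background of 6.14% with a lost and 2.64% with a gained region, the shares with a lost region ran from 6.41% to 12.8%. Of the translation initiation factor genes Eif4g3 had more calls at E12.5 (3.18, limma adjusted p = 0.0334, and 0.149 by class). Examples were Cox7c, a cytochrome oxidase subunit, with folds of 9.77, 14.8 and 11.9, and Psma1, a proteasome subunit, with 6.17, 12.7 and 8.17. Of 54 cell cycle and replication genes 4 (7.41%) had a lost promoter: Ccnb1, Pola1, Rfc1 and Top2a. A gained region was assigned to 2 (3.70%), Cdk6 and Top2a, and the background was again 6.14% and 2.64%. Zinc finger genes with Zfp names had 42 lost regions in 39 of 367 genes (10.6%), 34 of the regions within 1 kb of a start, and 9 gained regions in 9 genes (2.45%). Zfp960, Zfp932 and Zfp937, picked after their values were seen, had folds of 10.1, 15.6 and 9.77, of 9.04, 14.9 and 7.69, and of 7.96, 20.4 and 9.29. Of 1106 olfactory receptor genes 1 had a gained and 0 a lost region.

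For 44 genes a gained and a lost region were both assigned. At Sox4, a single-exon SoxC factor gene of neural crest mesenchyme, the summits lay 0.919 kb apart. The region at the start of the gene, on chr13:28953387-28953925, had folds of 4.90, 4.49 and 4.59 at E11.5 and no E12.5 or E10.5 peak. The region farther into the gene, on chr13:28952315-28953052, had 3.76, 3.52 and 3.16 at E12.5, was in all 3 E10.5 lists and had no E11.5 peak. At Igf2bp3, an RNA-binding protein gene of early embryos and the 1 gene with either kind in a list of 14 early timing genes (12 tested, 0 passing by limma), a gained region 0.796 kb from the start (folds of 3.39, 2.70 and 3.11) lay 3.97 kb from a lost one (4.75, 6.85 and 5.34). It made up 7.14% of that list, beside 2.64% of all genes with a gained and 6.14% with a lost region. Top2a, a topoisomerase of dividing cells, lost its promoter and had a gained region 6.70 kb away, and Zfp516 had 3 lost regions and 1 gained. Elavl4, a neuronal RNA-binding protein gene, lost a promoter peak of folds 8.68, 10.7 and 5.13 and had a gained region 58.6 kb from its boundary. Eif3f and Rarb were the other listed genes with both. Sec61g, a subunit of the protein translocation channel, had 2 of each, one of the lost regions 0.263 kb from its start with folds of 5.06, 13.1 and 9.45, and Phyhipl, Ppp2r5c and Sh3rf1 had 2 gained regions and 1 lost.

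Markers were also counted in the 2 sets. The 12 facial mesenchyme markers of the check above had 0 gained and 0 lost regions, and the 10 epithelial markers 0 and 2, both assigned to Epcam. The 8 endothelial markers had 0 and 1, which lay 74.3 kb from Sox17. The 8 glial and neuronal ones had 0 and 1, which lay 96.6 kb from Isl1. Of all genes 2.64% had a gained and 6.14% a lost region. In the wider marker lists, Erg, an endothelial ETS factor, had 0, 1 and 10 of 41 regions with a call at E11.5, then 17, 20 and 5 at E12.5 (3.10, limma adjusted p = 0.0433), and Pax7, a factor of muscle progenitors and neural crest, had 0, 0 and 5 of 27 and then 11, 15 and 3 (3.04, adjusted p = 0.0459). They were the 1 gene that passed among 8 tested endothelial and among 6 tested muscle markers, and of the 6 epithelial, 6 glial and neuronal and 4 blood markers tested 0 passed. Neither passed with odds by distance class (adjusted p = 0.275 and 0.245). Of all tested genes 0.489% had more calls. The Epcam regions lay 22.4 and 64.2 kb from the gene, and the nearer one had folds of 5.46, 7.80 and 5.55 in the E11.5 lists. Whether the share of other cell types differed between the stages was not tested, and fewer cells of a type and fewer openings per cell cannot be told apart in bulk samples.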

How the data were processed

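ATAC-seq peak lists of 3 E11.5 and 3 E12.5 samples (13 library runs) were compared, and the 3 E10.5 lists were used for description. The submitters' processing notes name the build mm10 and the tools Bowtie2, deepTools 3.3.1 and MACS2, without their roles, and blacklisted regions were removed per the labels. The sources used here do not state the handling of the Tn5 offset, read filters or MACS2 settings. Each deposited list gives a fold enrichment (a ratio) and a −log10 q-value per peak, both made by the authors' peak caller. Ranks were taken within a list, and folds are printed per list, without a common scale. The deposited lists hold no read counts, so depth is unknown.

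Peaks on chromosomes 1 to 19 and X were merged over the 6 lists at an overlap of 1 bp (1 peak elsewhere was left out), and the best-ranked summit gave a region's position. Expected calls came from an additive logit (Rasch) model of list and region, conditional on how many lists called a region. Starts came from RefSeq promoters (GRCm38.p6, the coordinates of mm10) for 17273 of 21627 protein-coding genes; for the other 4354, chromosome 18 among them, either boundary counted as a start. Exons, introns and UTRs were not used here. Regions were assigned to the gene with the nearest boundary within 100 kb. Residuals of genes with 5 or more regions were tested with limma 3.58.1 (R 4.3.3), stage as factor, over all genes with Benjamini-Hochberg adjustment at 0.05. With 147.8 prior degrees of freedom, its p-values depend mainly on the variance shared by all genes. The spread of a single gene between its samples enters them little: Dnah8 had a residual SD of 3.72 and an SE of 0.981. The smallest differences that passed were -2.93 at Stam2, with 5 regions, and 2.95 at Ryr1, with 24. Their SEs were 0.853 and 0.854, so the threshold was similar for few and many regions. The model was tested on simulated calls.

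Named were the 12 best-ranked assigned regions per set, the 10 genes with the largest difference per direction, members of 20 gene lists and 9 name-pattern lists that passed, up to 4 members per list and direction with gained or lost regions, and genes with both kinds (list members, or 3 or more regions), with exceptions marked in the text. Some items under this rule are not reported here. Members, lists and tests were chosen with earlier results of these data known. Alternatives varied the merging, list length, −log10 q, list odds, assignment, filters and the lists used. Calculations ran in Python 3.11.15 with SciPy 1.17.1, pandas 2.3.3 and NumPy 2.4.6, and plots in Matplotlib 3.10.9.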

Additional observations from a re-analysis of the deposited data

How the results depend on the processing

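Lost regions numbered 1453 to 1530 with a stricter overlap for merging, equal-length lists, the −log10 q ≥ 5 peaks and all 9 lists, and 1549 to 6918 with 1 list left out. Gained regions fell to 170 with equal-length lists and 30 with the −log10 q ≥ 5 peaks, and numbered 666 to 4820 with 1 list left out. The lost regions were 13.4 times the expected number with equal-length lists, 4.44 times with the −log10 q ≥ 5 peaks, 5.01 times with odds by distance class and 3.88 to 17.9 times with 1 list left out. The gained regions were 5.50 times the expected number with the −log10 q ≥ 5 peaks and 0.883 to 1.82 times with 1 list left out, below 1 without E11.5 sample 2 (0.883) and without E12.5 sample 2 (0.934). The cause was not tested. The share within 1 kb of a start was 87.7% of lost and 26.5% of gained regions with equal-length lists, 85.4% and 16.7% with the −log10 q ≥ 5 peaks, and 50.6% to 75.6% and 3.92% to 11.4% with 1 list left out. The difference in that share between whole lists kept its sign under the alternatives run, at -41.6 to -18.1 percentage points with 1 list left out. With the −log10 q ≥ 5 peaks its exact permutation p was 0.2, and the lists of the stages overlapped.

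Genes with more and with fewer calls numbered 65 and 114 with all 9 lists, 9 and 0 with equal-length lists (198 genes tested), 27 and 0 with the −log10 q ≥ 5 peaks (371 tested), 25 and 27 with regions called by 2 to 4 lists (794 tested), 0 and 7 with genes within 20 kb, 2 and 1 with 10 or more regions a gene, 53 and 186 with 3 or more, and 2 and 45 with odds by distance class. By limma, the 0 for fewer calls had 1 and 3 genes at an unadjusted p under 0.05, and the 0 for more calls within 20 kb had 340. Of the 71 genes with fewer calls, 0 could be tested with equal-length lists, 18 with the −log10 q ≥ 5 peaks and 4 with regions of 2 to 4 lists. With 1 list left out they numbered 0 to 43 and 1 to 87; the 0 for more calls without E11.5 sample 2 and without E12.5 sample 1 had 308 and 639 at an unadjusted p under 0.05 by limma. The sample number as a replicate block gave 37 and 85 genes, among them all 33 and 71. Deviations of same-numbered samples correlated at 0.00881, -0.0966 and 0.0332, beside -0.155 to 0.150 for samples of different numbers. By the labels, same-numbered samples share only a number, and whether they share more cannot be told from these values. Not every one of the 37 named genes could be fitted: 24 were within 20 kb, 8 with equal-length lists, 13 with the −log10 q ≥ 5 peaks, 15 with regions of 2 to 4 lists, 20 with 10 or more regions and 26 without E11.5 sample 2. Among those fitted, Ajap1 reversed within 20 kb (-0.0651, adjusted p = 0.984). The lists hold no depth, so a region not called cannot be told from one opened below a list's threshold.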
